A study of Rattus norvegicus with 15 samples.

Results

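The genes Slc34a1, Slc34a3, Slc13a1, Slc13a3 and Pdzk1 were followed in kidneys of cisplatin-treated rats. They were taken by symbol from the platform's probe table, where each had 1 probe, and they are 5 of 401 genes with a named probe. Of 26857 probes in the array files 26454 carried no symbol, so further probes of these genes may have gone unseen. The microarray series held 15 arrays in 5 groups of 3. Isolated proximal tubules came from rats given saline, 2 mg/kg or 10 mg/kg cisplatin, and whole kidneys from rats given 10 mg/kg cisplatin or saline. All groups were male Wistar/ST rats aged 8 weeks, injected intraperitoneally. How long after the injection the kidneys were taken is not stated in the labels. The tubules were isolated under microscopy, and no label says whether an array stands for 1 animal. The p-values therefore measure the spread between these arrays, which may be technical.

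The proximal tubule reclaims most of the phosphate, sulfate and organic acids that the glomerulus filters, with carriers driven by the sodium gradient. Slc34a1 encodes NaPi-IIa and Slc34a3 encodes NaPi-IIc, the brush border carriers through which filtered phosphate re-enters the cell and which parathyroid hormone and FGF23 restrain. Slc13a1 encodes the apical sulfate carrier NaS1. Slc13a3 encodes NaDC3, a basolateral carrier that brings dicarboxylates such as oxoglutarate into the cell, where organic anion exchangers use them. Pdzk1 encodes a scaffold of PDZ domains beneath the brush border that binds the tails of several apical carriers, NaPi-IIa among them.

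All 5 genes had a promoter window in the RefSeq table of assembly GRCr8, running from 250 bases before the annotated start to 50 after it. They are shown for Slc34a1 and Pdzk1, which moved alike across the arrays (r = 0.97), and for Slc13a3, which moved least like the others. The windows of the closest pair, Slc34a3 and Slc13a1 (r = 0.98), are not shown. Capitals mark matches to 3 short motifs, searched on both strands and chosen with the sequences in view. These were the HNF1 half-site GTTAAT, the HNF4 site CAAAGTCCA and the nuclear receptor half-site AGGTCA, which do not overlap one another in these windows.
Slc34a1 (chr17:9238934-9239233, minus strand): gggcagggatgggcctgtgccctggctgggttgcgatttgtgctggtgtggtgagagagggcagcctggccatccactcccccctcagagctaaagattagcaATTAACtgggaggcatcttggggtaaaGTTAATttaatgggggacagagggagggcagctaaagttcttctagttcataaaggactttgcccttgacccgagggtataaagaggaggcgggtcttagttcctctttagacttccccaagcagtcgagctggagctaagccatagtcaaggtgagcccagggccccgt
Pdzk1 (chr2:187064745-187065044, plus strand): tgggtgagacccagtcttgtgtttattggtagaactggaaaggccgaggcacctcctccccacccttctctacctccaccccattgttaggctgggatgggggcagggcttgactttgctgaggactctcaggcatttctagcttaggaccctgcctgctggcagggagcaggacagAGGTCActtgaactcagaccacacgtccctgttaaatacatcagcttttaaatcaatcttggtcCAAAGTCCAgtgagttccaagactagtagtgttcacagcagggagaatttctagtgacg
Slc13a3 (chr3:174623844-174624143, minus strand): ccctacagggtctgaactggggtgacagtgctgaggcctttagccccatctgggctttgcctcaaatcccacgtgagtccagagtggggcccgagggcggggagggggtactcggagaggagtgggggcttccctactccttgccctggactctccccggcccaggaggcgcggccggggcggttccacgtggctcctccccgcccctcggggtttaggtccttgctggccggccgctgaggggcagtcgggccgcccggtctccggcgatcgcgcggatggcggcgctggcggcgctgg
Slc34a1 held an HNF1 half-site on each strand, at positions -147 to -142 and -120 to -115 from the start, a motif found in 7.45% of 33469 promoter windows. Pdzk1 held the HNF4 site at -9 to -1, found in 0.391% of windows, and a nuclear receptor half-site at -73 to -68, found in 16.2%. The window of Slc34a3, not shown, held 2 of the nuclear receptor half-sites, and those of Slc13a1 and Slc13a3 held no match to these letters. The GC content was 71.7% in the window of Slc13a3, against 38.3% to 58.7% in those of the other 4 genes and a median of 51.7% over all windows. A match is a description of letters and was tested neither for binding nor for a link with the genes' patterns.

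The first question was how the carriers responded to 10 mg/kg in the tubules. All 5 fell, by 3.30-fold (Pdzk1) to 4.52-fold (Slc13a1), and on every array at 10 mg/kg each gene lay below every saline array. Values are log2 signals after quantile normalization, folds are ratios of signals without background subtraction, and a call is an adjusted p under 0.05 in limma, corrected over 26601 probes. By that rule 3.36% of all tested probes and 46.6% of the 401 named genes fell in this comparison. Groups did not overlap, with 10 mg/kg lower, for 11.7% of probes with all 6 values, a share not counted over the named genes alone. Every named gene belongs to the 1219 probes of a table that the authors deposited by an unstated rule, so the share among named genes is the nearer comparison. The median change was -1.93 over the 5 genes, -1.28 over named genes and 0.03 over all tested probes.

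The phosphate carriers fell together. Slc34a1 stood at 17.79, 17.39 and 17.61 at 10 mg/kg, against 19.48, 19.67 and 19.91 after saline. After normalization the groups were far apart and tight, and the difference was -2.09 ± 0.29 (SE), 4.26-fold lower (limma adjusted p = 0.0007044). The signals before scaling were more scattered, at 96152 to 370441 at 10 mg/kg against 854185 to 1353122 after saline. The gene was among the brightest of each array, with 2 to 7 probes brighter in saline tubules. Slc34a3 stood at 11.59, 11.73 and 11.89 at 10 mg/kg, against 13.22, 13.56 and 14.22 after saline. It was 3.82-fold lower, a difference of -1.93 ± 0.34 (limma adjusted p = 0.003433), with the wider spread among the saline arrays.

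Of the sulfate and dicarboxylate carriers, Slc13a1 stood at 13.22, 12.17 and 12.78 at 10 mg/kg, against 14.52, 14.83 and 15.35 after saline. The difference was -2.18 ± 0.37 (limma adjusted p = 0.002595). Slc13a3 stood at 13.20, 13.86 and 14.65 at 10 mg/kg, against 15.22, 15.55 and 16.32 after saline. Its arrays were the most scattered of the 5 genes at this dose, with an SD of 0.73 against 0.15 to 0.53 for the others, and the difference was -1.79 ± 0.46 (limma adjusted p = 0.03551). The call did not survive leaving out 10 mg/kg replicate 1 (-1.44, limma adjusted p = 0.135) or 2 (-1.77, limma adjusted p = 0.093) or saline replicate 2 (-1.87, limma adjusted p = 0.0772) or 3 (-1.48, limma adjusted p = 0.148), nor did it hold with the replicate number as a block (limma adjusted p = 0.0569) or in a fit of these 6 arrays alone (limma adjusted p = 0.113, or 0.102 with the block).

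The scaffold gene Pdzk1 stood at 16.36, 16.12 and 15.93 at 10 mg/kg, against 17.88, 17.64 and 18.06 after saline, a difference of -1.72 ± 0.27 (limma adjusted p = 0.001715). Slc34a1, Slc34a3, Slc13a1 and Pdzk1 kept their calls under the other scalings, filters and weights, with the series table values, with the replicate block, with these arrays alone and without each array in turn. They lost them in 1 fit added after the data were seen, which held the 6 arrays alone with the replicate number as a block and left 2 residual degrees of freedom (limma adjusted p between 0.0804 and 0.116). In bulk samples, fewer proximal cells and less RNA per cell cannot be told apart. Of 13 named proximal tubule markers 11 fell beside the carriers, with mean levels over the list of 12.8 to 13.4 at 10 mg/kg against 15.2 to 15.7 after saline. Of 6 named markers of tubular injury 5 rose. The leukocyte markers C1qa and C1qc averaged 12.3 to 13.3 at 10 mg/kg against 10.9 to 12.2 after saline, and neither passed. The part of these shifts in the result was not tested.

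**Figure D1:**
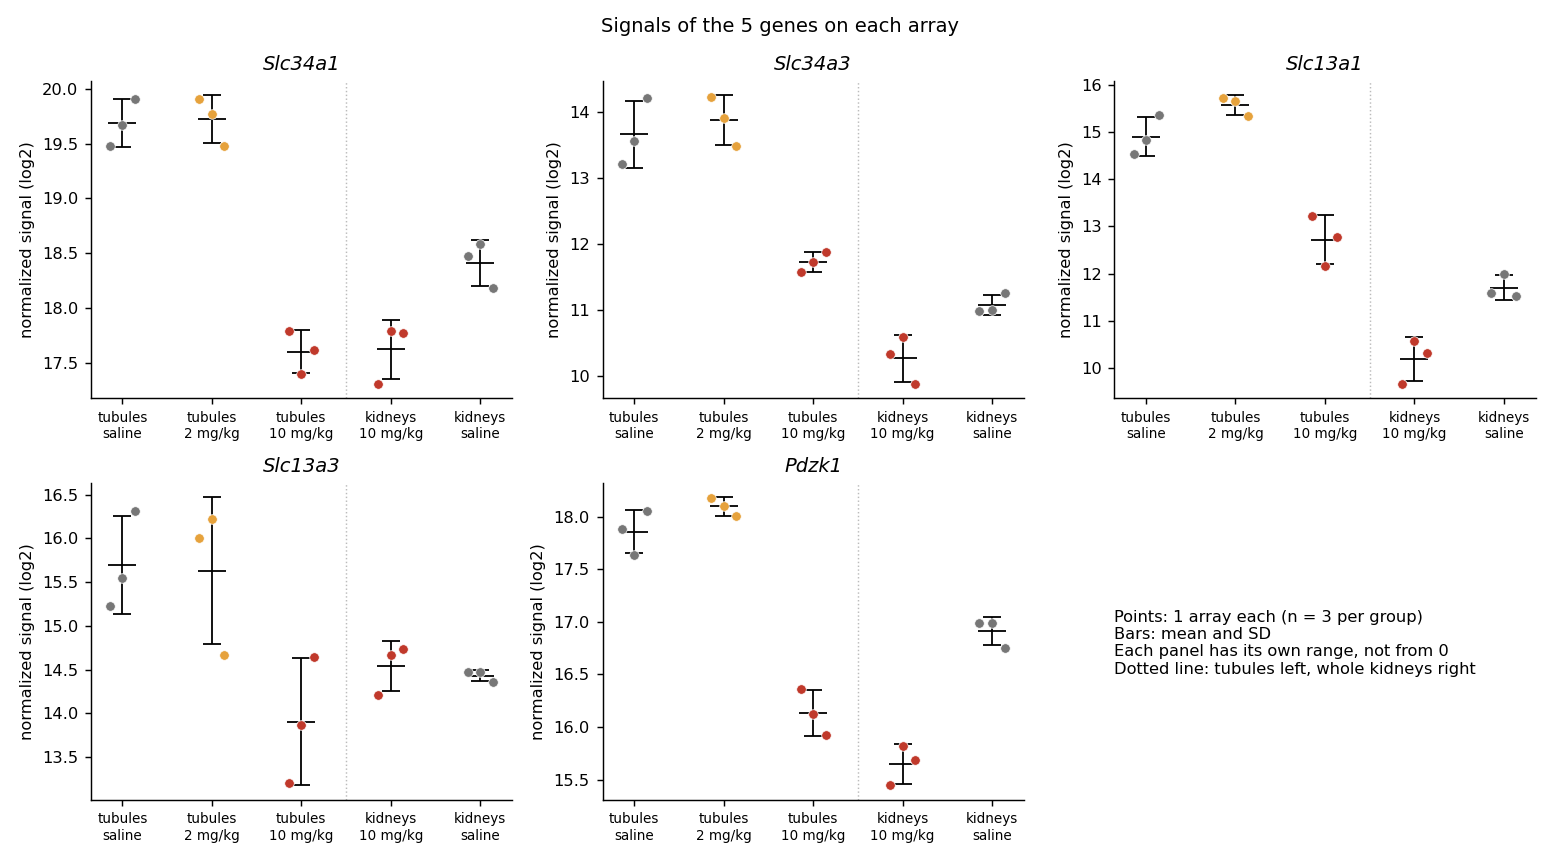
Normalized log2 signal of each gene on each array, with tubules at 0 (saline), 2 and 10 mg/kg to the left of the dotted line and whole kidneys at 10 mg/kg and after saline to the right; bars are the mean and SD of 3 arrays. In tubules all 10 mg/kg points lie below all saline points for each gene, and in whole kidneys Slc13a3 is the gene whose groups overlap.

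The second question was whether 2 mg/kg, the lower dose, changed these carriers. None of the 5 passed, and the limma fit called 0 of 26601 probes (0%), with 903 at an unadjusted p under 0.05. With the values of the authors' series table over its 1219 probes it called 23, none of them a gene described here. In the order saline, 2 mg/kg and 10 mg/kg the group means of Slc34a1 were 19.69, 19.72 and 17.60, and those of Slc34a3 were 13.67, 13.88 and 11.73. Those of Slc13a1 were 14.90, 15.57 and 12.72, those of Slc13a3 15.70, 15.63 and 13.90, and those of Pdzk1 17.86, 18.10 and 16.14. Each 2 mg/kg mean lay closer to the saline mean than to the 10 mg/kg mean, with Slc13a1 the farthest from saline. The step down came between 2 and 10 mg/kg.

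At 2 mg/kg the arrays read 19.91, 19.77 and 19.48 for Slc34a1 and 14.23, 13.92 and 13.49 for Slc34a3, inside or overlapping the saline arrays. Slc13a1 read 15.71, 15.66 and 15.33, above the saline mean on each array but overlapping at its top, and its difference from saline was the largest of the 5 at 0.67 ± 0.37, with a 95% interval of -0.12 to 1.45 (limma adjusted p = 0.9999). Pdzk1 read 18.18, 18.11 and 18.01, a difference of 0.24 with an interval of -0.35 to 0.82. Slc13a3 read 16.00, 16.23 and 14.67, so that replicate 3 lay apart from the other two, and without that array the difference was 0.42 in place of -0.06, neither passing. The intervals of Slc34a1 (-0.59 to 0.65) and Slc34a3 (-0.51 to 0.94) leave room for changes of those sizes. For Slc34a1 only 2 to 7 probes were brighter at 2 mg/kg and after saline. Quantile normalization assigns values by rank, so a rise of this gene could hardly show.

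All 5 genes were lower in tubules given 10 mg/kg than in those given 2 mg/kg, where 3.77% of probes and 50.6% of named genes were lower. Slc13a1 differed by -2.84 ± 0.37, 7.18-fold (limma adjusted p = 0.0003954). Slc34a3 differed by -2.15 ± 0.34, Slc34a1 by -2.12 ± 0.29 and Pdzk1 by -1.96 ± 0.27. Slc13a3 differed by -1.73 ± 0.46 (limma adjusted p = 0.03948), although its highest array at 10 mg/kg (14.65) came close to its lowest at 2 mg/kg (14.67). This call was lost without 10 mg/kg replicate 1 or 2, without 2 mg/kg replicate 1 or 2 (between -1.71 and -1.38, limma adjusted p between 0.102 and 0.181), with the replicate block (limma adjusted p = 0.0614) and with these 6 arrays alone (limma adjusted p = 0.144, or 0.241 with the block). In that last fit Slc13a1 kept its call (limma adjusted p = 0.0462), while Slc34a1, Slc34a3 and Pdzk1 lost theirs (limma adjusted p between 0.0718 and 0.0788). The comparisons of 10 mg/kg with saline and with 2 mg/kg share the 10 mg/kg arrays.

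Whole kidneys at 10 mg/kg were then compared with saline kidneys. Of the 5 genes 2 fell, Slc13a1 and Pdzk1, where 3.53% of probes and 46.4% of named genes fell. The median change of the 5 genes was -0.81, beside -1.24 over named genes and 0.02 over all tested probes. Groups did not overlap, with 10 mg/kg lower, for 4 of the 5 genes and for 12.8% of probes with all 6 values. The share over named genes, the nearer comparison, was not counted.

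Slc13a1 stood at 9.68, 10.57 and 10.32 at 10 mg/kg, against 11.58, 12.01 and 11.53 after saline. It was 2.86-fold lower, a difference of -1.52 ± 0.37 (limma adjusted p = 0.02368). Pdzk1 stood at 15.45, 15.82 and 15.68 at 10 mg/kg, against 16.99, 16.99 and 16.76 after saline. It was 2.40-fold lower, at -1.26 ± 0.27 (limma adjusted p = 0.01297). Both kept their direction, but their limma adjusted p became 0.121 and 0.154 when arrays were centred on the median, 0.264 and 0.375 without scaling and 0.101 and 0.0941 with these 6 arrays alone (0.227 and 0.262 with the block), Slc13a1 being given first. Slc13a1 also missed the threshold when 10 mg/kg replicate 1 or 3 or saline replicate 1 or 2 was left out (limma adjusted p between 0.0505 and 0.0848).

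The phosphate carriers lay lower on every array at 10 mg/kg without passing. Slc34a1 stood at 17.31, 17.79 and 17.77 at 10 mg/kg, against 18.48, 18.58 and 18.18 after saline, a difference of -0.79 ± 0.29 (limma adjusted p = 0.1299, or 0.0343 over probes above the median signal). Slc34a3 stood at 10.33, 10.60 and 9.89 at 10 mg/kg, against 10.99, 11.00 and 11.26 after saline, a difference of -0.81 ± 0.34 (limma adjusted p = 0.1879, or 0.0421 over the 1219 probes of the series table). Of those 1219 probes, which the authors selected, 749 passed in that fit, so its adjustment is milder than the one over all probes. The raw signals of Slc34a1 and Pdzk1 overlapped between the groups through saline replicate 3, which had the lowest median signal of the 15 arrays (201) and the lowest mean correlation with the others (0.82).

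Slc13a3 was the 1 gene of the 5 whose groups overlapped in whole kidneys. It stood at 14.22, 14.67 and 14.74 at 10 mg/kg, against 14.47, 14.47 and 14.36 after saline, with the saline arrays inside the range of the 10 mg/kg arrays. The difference was 0.11 with a 95% interval of -0.89 to 1.11, and it lay between -0.12 and -0.01 with median centring, without scaling and with the series table values. Of 13 proximal tubule markers 10 fell in these kidneys, with mean levels of 11.3 to 11.8 at 10 mg/kg against 13.7 to 13.9 after saline. Whether the fall was even along the tubule cannot be read from segment markers, because their starting levels differed. For S1 and S2 there were 5 named markers, of which 2 were lower and 3 did not pass (median change 0.42). Those 3, Slc5a2, Slc7a7 and Slc4a4, averaged 8.07, 9.18 and 10.49 in saline kidneys, against 16.81, 16.20 and 15.77 in saline tubules. From levels as low as those of Slc5a2 and Slc7a7 a fall could hardly show, although the proximal marker Slc7a9 fell from 10.39 to 7.24. All 4 named markers of the S3 segment fell, with a median of -3.26, from mean levels of 14.2 to 14.5 after saline. In isolated tubules at 10 mg/kg 4 of the 5 S1 and S2 markers fell (median -2.27) and 3 of the 4 S3 markers (median -2.51). A difference between segments was not tested. In whole kidneys all 6 injury markers rose, and C1qa and C1qc, at 12.3 to 12.8 against 10.7 to 11.3, did not pass. The part of these shifts in the result was not tested.

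**Figure D2:**
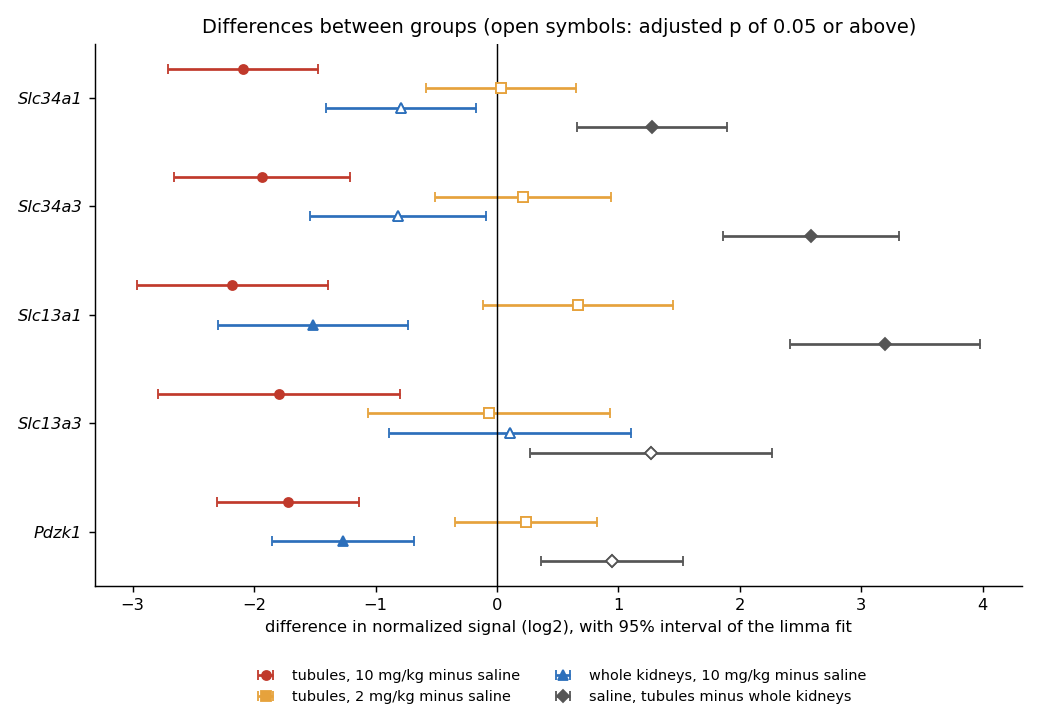
Differences in normalized log2 signal with 95% intervals of the limma fit for 4 comparisons of the 5 genes, where filled symbols passed an adjusted p of 0.05 and the fourth comparison sets saline tubules against saline kidneys. The 10 mg/kg differences in tubules lie between -2.18 and -1.72, those at 2 mg/kg between -0.06 and 0.67, and those of whole kidneys between -1.52 and 0.11.

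The change at 10 mg/kg was compared directly between tubules and whole kidneys, as the tubule difference minus the kidney difference. None of the 5 genes passed, and the fit called 10 probes (0.0376%). Slc13a3 had the widest gap, at -1.90 ± 0.66 (limma adjusted p = 0.3145), and of the settings tried it passed only with the values of the series table (-2.16, limma adjusted p = 0.0368). The gap was -1.30 ± 0.41 for Slc34a1, -1.12 ± 0.48 for Slc34a3, -0.66 ± 0.52 for Slc13a1 and -0.46 ± 0.39 for Pdzk1 (limma adjusted p between 0.2671 and 0.7231). The falls in tubules are therefore not shown to differ from those in whole kidneys for any of these genes.

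**Figure D3:**
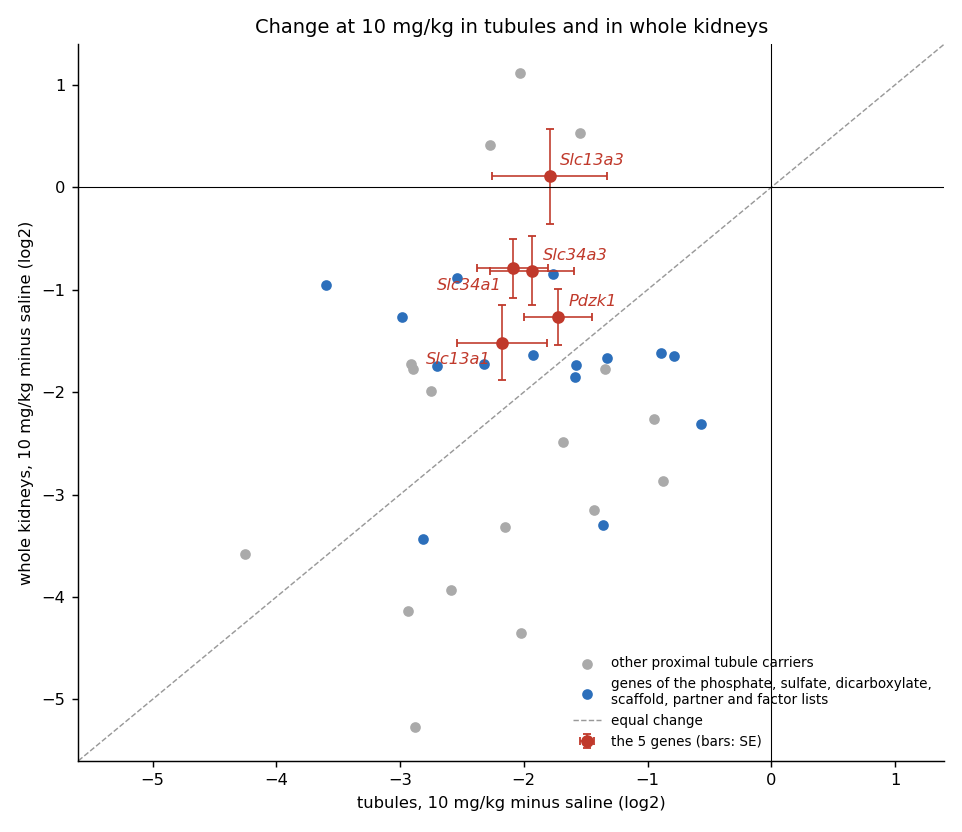
Change at 10 mg/kg against saline in tubules (x axis) and whole kidneys (y axis), as log2 differences, for the 5 genes with SE bars, for other proximal tubule carriers and for genes of the related lists; the dashed line marks equal change. The 5 genes lie between -2.18 and -1.72 on the x axis and spread from -1.52 (Slc13a1) to 0.11 (Slc13a3) on the y axis.

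The tissues were also set against each other without drug. Of the 5 genes 3 were higher in saline tubules than in saline kidneys, where 2.12% of probes and 16.2% of named genes were higher. Slc13a1 was 9.16-fold higher, at 14.90 in tubules and 11.71 in kidneys, a difference of 3.19 ± 0.37 (limma adjusted p = 0.0002484). Slc34a3 was 5.99-fold higher, at 13.67 in tubules and 11.09 in kidneys, a difference of 2.58 ± 0.34 (limma adjusted p = 0.0006659). Both calls were lost with these 6 arrays alone and the block (limma adjusted p = 0.0915 and 0.112).

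Slc34a1 averaged 19.69 in tubules and 18.41 in kidneys, a difference of 1.28 ± 0.29 (limma adjusted p = 0.02479). That call was lost without tubule replicate 2 or 3, without kidney replicate 1 or 3 (limma adjusted p between 0.0584 and 0.0879), with median centring (0.0866), with the replicate block (0.0516) and with these 6 arrays alone (0.135, or 0.28 with the block). Slc13a3 averaged 15.70 in tubules and 14.43 in kidneys, and Pdzk1 17.86 and 16.91. Their differences of 1.26 ± 0.46 and 0.95 ± 0.27 did not pass.

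Markers of the tubule's segments differed between these tissues as well. All 5 named markers of the S1 and S2 segments were higher in saline tubules, with mean levels of 15.5 to 16.6 against 10.2 to 10.8 in saline kidneys. Of 4 named markers of the S3 segment 3 were lower, with mean levels of 10.7 to 12.7 in tubules against 14.2 to 14.5 in kidneys. Of the 13 proximal markers 5 were higher in saline tubules, 1 was lower and 7 did not pass, with a median difference of 0.51 and mean levels over the list of 15.2 to 15.7 in tubules and 13.7 to 13.9 in kidneys. The part of these shifts in the carriers' differences was not tested. No marker of the thick ascending limb, distal tubule, collecting duct, podocytes, endothelium, stroma or red cells had a named probe.

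At 10 mg/kg 2 genes were higher in tubules than in whole kidneys, where 5.85% of probes and 21.4% of named genes were higher in tubules. Slc13a1 stood at 12.72 in tubules and 10.19 in kidneys, a difference of 2.53 ± 0.37 (limma adjusted p = 0.0007365, or 0.111 with these 6 arrays alone and the block). Slc34a3 stood at 11.73 in tubules and 10.27 in kidneys, a difference of 1.46 ± 0.34 (limma adjusted p = 0.01272). The Slc34a3 call was lost with these 6 arrays alone (0.0704, or 0.18 with the block) and without kidney replicate 3 (1.27, limma adjusted p = 0.0539). Slc34a1 averaged 17.60 in tubules and 17.62 in kidneys, with an interval of the difference from -0.64 to 0.60, and the sign of so small a difference turned with the scaling. Slc13a3 (-0.64 ± 0.46) and Pdzk1 (0.49 ± 0.27) did not pass either.

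How far the genes moved together was described by the difference between a pair of genes on the same array, a measure chosen after their values were seen. Because each probe has its own brightness, only the shift of that difference between groups can be read. For the 10 pairs in tubules, none had arrays at 10 mg/kg that all lay on one side of the saline arrays, and the shifts ran from -0.30 to 0.27. Over all pairs of named genes with all values, which include genes that rose and genes that fell, 58.9% did not overlap in tubules. In whole kidneys 6 of the 10 pairs did not overlap, a share near the 66.0% found over all pairs of named genes. Of these 6 pairs, 4 were those of Slc13a3 with each other gene and 2 were those of Slc34a1 with Slc13a1 and with Pdzk1.

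The widest of these was Slc13a1 less Slc13a3. It stood at -4.22, -4.27 and -4.36 in kidneys at 10 mg/kg, against -2.92, -2.53 and -2.66 after saline, a shift of -1.58. Slc13a3 less Pdzk1 stood at -1.25, -1.21 and -0.99 at 10 mg/kg, against -2.51, -2.58 and -2.47 after saline, a shift of 1.37. The groups lay apart in both pairs, but these pairs were picked for their width and share the Slc13a3 values. How wide such shifts run over other pairs of named genes was not counted. In 20 two-sided exact permutation tests each of the 6 pairs had p = 0.1, the smallest that 3 arrays against 3 allow, and 0.333 after Benjamini-Hochberg adjustment, so none could pass.

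**Figure D4:**
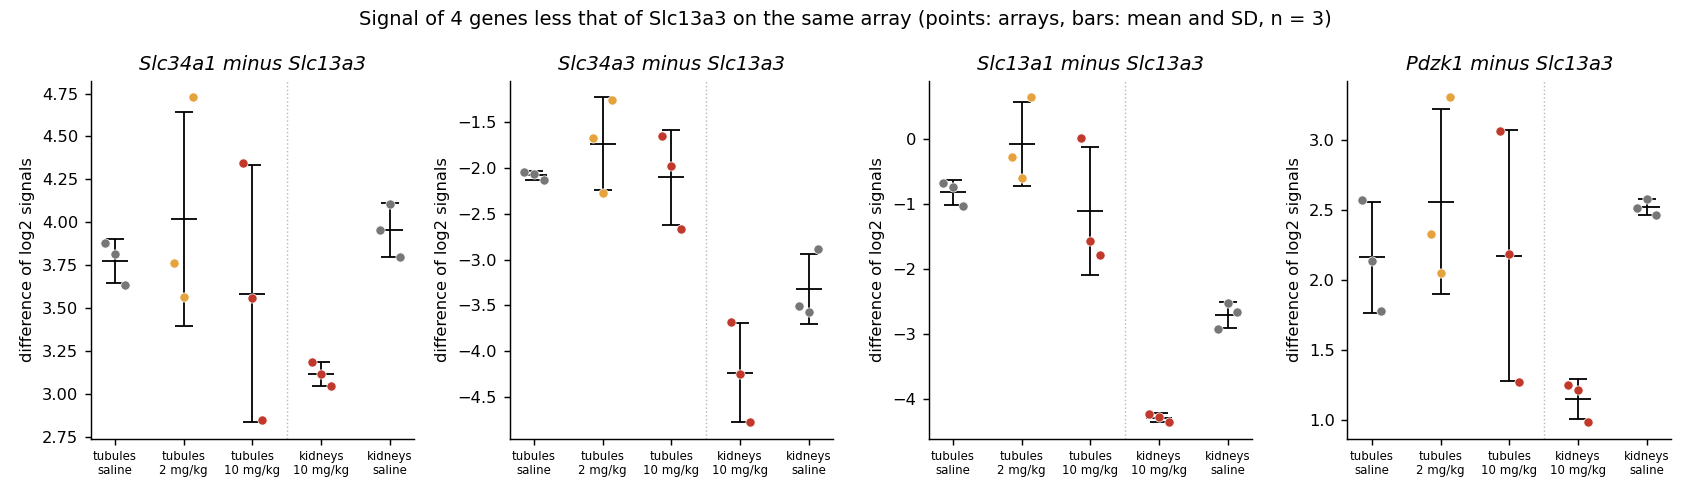
Log2 signal of Slc34a1, Slc34a3, Slc13a1 and Pdzk1 less that of Slc13a3 on the same array, with tubules at 0, 2 and 10 mg/kg left of the dotted line and whole kidneys at 10 mg/kg and after saline right of it; points are arrays, bars the mean and SD of 3, and the zero of the y axis has no meaning. Slc13a3 was taken as the common term after its values were seen, and in whole kidneys the 10 mg/kg points lie below the saline points in all 4 panels.

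Over the 15 arrays the genes formed a graded set. The highest correlations were those of Slc34a3 with Slc13a1 (r = 0.98) and of Slc34a1 with Pdzk1 (r = 0.97), and the lowest that of Slc13a1 with Slc13a3 (r = 0.65). These are descriptions over arrays that share 5 groups, so they contain the differences between group means given above. Among 398 named genes with all values, the patterns most like Slc34a1 were those of the acyl-CoA synthetase Acsm2 (r = 0.98), the monooxygenase Fmo1 (r = 0.98) and Acmsd, an enzyme of tryptophan catabolism (r = 0.97). Closest to Slc34a3 were Sord, the sorbitol dehydrogenase (r = 0.98), Nrep (r = 0.98) and Slc13a1. Closest to Slc13a1 were Sord (r = 0.99), the diacylglycerol kinase Dgkg (r = 0.98) and the potassium channel Kcnj16 (r = 0.98). Pdzk1 was most like the glycerol kinase Gk (r = 0.98), the serine synthesis enzyme Psat1 (r = 0.98) and Acsm2 (r = 0.97). Slc13a3 had looser neighbours, namely Slc22a6 (r = 0.91), the focal adhesion kinase Ptk2 (r = 0.88) and the pyruvate carboxylase Pc (r = 0.86).

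The lists that follow are read beside the named genes as a whole, of which 46.6% fell at 10 mg/kg in tubules and 46.4% in whole kidneys. Other genes of phosphate handling had 3 named probes of 20 listed. Pth1r, the receptor of parathyroid hormone, fell by 2.70 ± 0.37 in tubules at 10 mg/kg and by 1.74 ± 0.37 in whole kidneys (limma adjusted p = 0.0007254 and 0.01294). Fam20c, a secretory pathway kinase, fell by 1.58 ± 0.36 and by 1.85 ± 0.36 in the same order, and its call in tubules was lost without 10 mg/kg replicate 1 or saline replicate 2 or 3 (-1.55 to -1.33, limma adjusted p between 0.0572 and 0.0837) and with the 6 arrays alone (0.0947). Enpp1, which makes pyrophosphate, differed by -0.79 ± 0.33 in tubules without passing (limma adjusted p = 0.2432) and fell by 1.65 ± 0.33 in whole kidneys (limma adjusted p = 0.008962, or 0.118 with median centring and 0.0766 with the 6 arrays alone). In tubules 2 of the 3 fell and in whole kidneys all 3, with medians of -1.58 and -1.74.

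Genes of sulfate transport and use had 4 named probes of 18, of which 3 fell in tubules and 3 in whole kidneys, with medians of -1.67 and -1.69. The sulfotransferase gene Sult1c2 fell by 1.92 ± 0.34 in tubules and by 1.63 ± 0.34 in whole kidneys, where the call was lost with median centring (limma adjusted p = 0.105) and with the 6 arrays alone (0.0822). Tst, a mitochondrial thiosulfate sulfurtransferase, fell by 1.58 ± 0.29 and by 1.74 ± 0.29, and both calls were lost with the 6 arrays alone (limma adjusted p = 0.0603 and 0.0566). Suox, the sulfite oxidase that yields sulfate, fell by 1.77 ± 0.29 in tubules and differed by -0.85 ± 0.29 in whole kidneys (limma adjusted p = 0.1041). Sult1b1 differed by -0.57 ± 0.49 in tubules and fell by 2.31 ± 0.49 in whole kidneys (limma adjusted p = 0.683 and 0.01246).

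Dicarboxylate genes had 3 named probes of 26, of which 2 fell in each tissue, with medians of -1.36 in tubules and -1.67 in whole kidneys. Slc22a6 encodes OAT1, the basolateral exchanger that takes up organic anions for dicarboxylates. It fell by 2.54 ± 0.40 in tubules (limma adjusted p = 0.001624) and differed by -0.89 ± 0.40 in whole kidneys (limma adjusted p = 0.2228). Slc25a11, the mitochondrial oxoglutarate carrier, fell by 1.33 ± 0.29 in tubules and by 1.67 ± 0.29 in whole kidneys, and its call in tubules was lost without 10 mg/kg replicate 2 or saline replicate 3 (limma adjusted p = 0.0619 and 0.0633), with median centring (0.0615), without scaling (0.0741) and with the 6 arrays alone (0.129). Slc25a10, the mitochondrial dicarboxylate carrier, differed by -1.36 ± 0.85 in tubules and fell by 3.29 ± 0.85 in whole kidneys (limma adjusted p = 0.03313), a call lost without 10 mg/kg replicate 2 or 3 or any saline array (-3.36 to -2.55) and with the 6 arrays alone (limma adjusted p = 0.087).

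A list of 14 symbols held brush border scaffolds and partners, with older and newer names of the same genes. No scaffold on it had a named probe. The only symbol with one was Pdzk1ip1, a partner whose product binds Pdzk1. It differed by -0.89 ± 0.36 in tubules (limma adjusted p = 0.2034) and fell by 1.61 ± 0.36 in whole kidneys (limma adjusted p = 0.01476), a call lost without 10 mg/kg replicate 3 or saline replicate 3 (limma adjusted p = 0.0619 and 0.0539) and with the 6 arrays alone (0.0948). Of 19 carriers and receptors known to bind Pdzk1 or its relative Nherf1, 2 had a named probe and both fell in tubules. Slc9a3, the apical sodium-proton exchanger NHE3, fell by 2.99 ± 0.49 in tubules and differed by -1.26 ± 0.49 in whole kidneys (limma adjusted p = 0.1575). The whole-kidney difference shrank to -0.60 (limma adjusted p = 0.452) when 10 mg/kg replicate 3 was left out. It passed when replicate 1 of that group was left out (-1.80, limma adjusted p = 0.0394) and with the series table values (-1.39, limma adjusted p = 0.00937). Slc22a5, the carnitine carrier, fell by 2.32 ± 0.27 in tubules and by 1.73 ± 0.27 in whole kidneys.

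Of 12 transcription factors of proximal carriers 2 had a named probe. Hnf4a, a nuclear receptor of hepatic and proximal tubule programmes, differed by -2.81 ± 0.93 in tubules (limma adjusted p = 0.1072) and fell by 3.43 ± 0.93 in whole kidneys (limma adjusted p = 0.04151), a call lost without any of the 6 arrays (limma adjusted p between 0.0723 and 0.112), with median centring (0.0625) and with the replicate block (0.0607). In tubules it passed without scaling (-3.26, limma adjusted p = 0.00786) and with the series table values (-2.89, limma adjusted p = 0.00218). Thrb, a thyroid hormone receptor, fell by 3.60 ± 0.42 in tubules (limma adjusted p = 0.00028) and differed by -0.95 ± 0.42 in whole kidneys.

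Among 17 other proximal tubule carriers and receptors with a named probe, 14 fell in tubules and 14 in whole kidneys, with medians of -2.15 and -2.49. Of these Slc5a2, Slc4a4, Slc6a13, Slc7a9, Slc3a1, Aqp1, Cubn, Folr1 and Anpep are also among the proximal tubule markers above. The counts of both lists are therefore not separate observations. The glucose 6-phosphate carrier gene Slc37a4 fell by 2.91 ± 0.32 in tubules and by 1.72 ± 0.32 in whole kidneys. Slc22a25 fell by 4.25 ± 0.53 and by 3.58 ± 0.53, and Slc6a13, a GABA and taurine carrier, fell by 2.93 ± 0.38 and by 4.13 ± 0.38. Anpep, the brush border aminopeptidase N, fell by 2.75 ± 0.40 in tubules and fell by 1.99 ± 0.40 in whole kidneys. The list genes named here made 14 calls in tubules, of which 7 were lost with the 6 arrays alone and the block. They made 15 in whole kidneys, of which 11 were lost without scaling and all 15 with the 6 arrays alone and the block. With the series table values Enpp1 and Pdzk1ip1 in tubules and Suox and Thrb in whole kidneys passed as well (limma adjusted p between 0.0111 and 0.0471). The 5 genes described here, with medians of -1.93 in tubules and -0.81 in whole kidneys, were thus nearer to 0 than this list in both tissues, a description with no test.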

How the data were processed

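Transcripts were measured on 15 1-colour chemiluminescent Rat Genome Survey arrays (Applied Biosystems). Per the file headers and values, each deposited array file holds 1 linear intensity per probe, with no background, detection, slide or scan column, so no background correction, detection filter or batch test was possible; a filter on mean signal was an alternative. The labels name no scanner software. The authors' deposited series table holds 1219 probes as a ratio of that signal to 1 constant per array, by a selection rule that the labels do not state. Symbols came from the platform annotation of those probes. Intensities were taken to log2 and quantile normalized, and a mean per group was fitted over all 15 arrays with limma 3.58.1 in R 4.3.3 (10 residual degrees of freedom). Of the probes, 26601 had at least 2 values per group and 256 were left out. Tests were two-sided, moderated by eBayes and adjusted by Benjamini-Hochberg, with 95% intervals. The number of arrays limits the precision.

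Groups and replicate numbers came from the sample titles. The members, gene lists and tests were chosen with earlier results of these data known. Lists with up to 4 named genes were named in full, and longer ones by the 4 of smallest adjusted p in tubules at 10 mg/kg. Similar patterns are the 3 highest Pearson correlations per gene. The pair differences, the promoter motifs and the fit of the compared arrays alone with a replicate block were added after the data were seen. Promoter windows came from the RefSeq table of assembly GRCr8.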

Additional observations from a re-analysis of the deposited data

How the results depend on the processing

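Of 590 values of the 5 genes under alternative settings, 520 kept their direction and side of the threshold, 47 lost the call, 8 gained it and 15 changed sign. The 590 include comparisons with no call to lose, among them all at 2 mg/kg and all differences of responses. For the 19 list genes named in the text, at 10 mg/kg against saline in both tissues, 534 of the values were kept, 65 lost the call and 9 gained it, with no sign change. After quantile normalization, deviations of same-numbered arrays correlated at -0.14 to 0.13, which gave no sign of pairing by number. That scaling removes shifts of a whole array, so shared handling by number was not tested. Replicate 3 had the lowest median signal of its group throughout. It stood at 245, 261 and 226 in tubules after saline, 2 mg/kg and 10 mg/kg. In kidneys it stood at 201 after saline and 204 at 10 mg/kg. With the number as a replicate block, Slc13a3 lost its call at 10 mg/kg in tubules (-1.79, limma adjusted p = 0.0569) and against 2 mg/kg (-1.73, 0.0614), and Slc34a1 lost that of saline tubules against kidneys (1.28, 0.0516); the block took the probes differing in response between the tissues to 0 (2735 at an unadjusted p under 0.05).

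The block with only the arrays compared was chosen after seeing the data. It called 150 probes at 10 mg/kg in tubules, 216 against 2 mg/kg, 25 between the saline tissues and 0 at 2 mg/kg, in whole kidneys, between tissues at 10 mg/kg and for the difference of responses (1254, 3924, 4697 and 2460 at an unadjusted p under 0.05). The 5 genes' differences did not move, but the calls were lost at 10 mg/kg in tubules for Slc34a1 (-2.09), Slc34a3 (-1.93), Slc13a1 (-2.18), Slc13a3 (-1.79) and Pdzk1 (-1.72). Against 2 mg/kg they were lost for Slc34a1 (-2.12), Slc34a3 (-2.15), Slc13a3 (-1.73) and Pdzk1 (-1.96), in whole kidneys for Slc13a1 (-1.52) and Pdzk1 (-1.26), between saline tissues for Slc34a1 (1.28), Slc34a3 (2.58) and Slc13a1 (3.19), and between tissues at 10 mg/kg for Slc34a3 (1.46) and Slc13a1 (2.53). That fit leaves 2 residual degrees of freedom for single comparisons.

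With only the arrays compared and no block, the counts were 643 at 10 mg/kg in tubules, against 1553 with all arrays, 1094 against 1711 for 10 over 2 mg/kg, 519 against 1717 in whole kidneys, 293 against 954 between saline tissues, 977 against 2813 between tissues at 10 mg/kg and 0 (2525 at an unadjusted p under 0.05) against 10 for the difference of responses. The calls lost there were Slc13a3 in tubules (-1.79) and against 2 mg/kg (-1.73), Slc13a1 (-1.52) and Pdzk1 (-1.26) in whole kidneys, Slc34a1 between saline tissues (1.28) and Slc34a3 at 10 mg/kg (1.46).

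Median centring called 675 probes in whole kidneys, 1550 between tissues at 10 mg/kg and 2 for the difference of responses, and lost Slc13a1 (-1.60) and Pdzk1 (-1.38) in whole kidneys and Slc34a1 between saline tissues (1.58). It turned Slc13a3 in whole kidneys to -0.014 and Slc34a1 between tissues at 10 mg/kg to 0.072. Without scaling the median of all probes shifted by -0.32 at 10 mg/kg in tubules, -0.13 at 2 mg/kg, -0.14 between the doses, 0.61 between saline tissues, 0.30 between tissues at 10 mg/kg and -0.28 for the difference of responses. It called 917, 1010, 356, 1248 and 2 probes in tubules at 10 mg/kg, against 2 mg/kg, in whole kidneys, between tissues at 10 mg/kg and for the difference of responses. It lost Slc13a1 (-1.70) and Pdzk1 (-1.49) in whole kidneys, gained Slc13a3 between saline tissues (2.38), and turned Slc13a3 in whole kidneys to -0.12 and Slc34a1 between tissues at 10 mg/kg to 0.42. Scaling moved the split of calls: in tubules at 10 mg/kg 659 were higher and 894 lower with quantiles, 341 and 737 with median centring and 129 and 788 without scaling. In whole kidneys the splits were 779 and 938, 255 and 420, and 107 and 249. Against 2 mg/kg they were 707 and 1004, 352 and 973, and 142 and 868. Between saline tissues they were 565 and 389, 558 and 239, and 1245 and 70, and between tissues at 10 mg/kg 1557 and 1256, 1071 and 479, and 1061 and 187.

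Of the 1219 probes that the authors' ratios cover, the fit to those values called 967, 23, 956, 749, 406, 450 and 176, in the order tubules at 10 mg/kg, at 2 mg/kg, between doses, whole kidneys, saline tissues, tissues at 10 mg/kg and difference of responses. The p-values were adjusted within this selected set, so a call is easier to reach there where many of its probes pass. Slc34a3 in whole kidneys (-0.93), Slc13a3 (1.77) and Pdzk1 (1.41) between saline tissues and Slc13a3 in the difference of responses (-2.16) gained a call, Slc13a3 in whole kidneys turned to -0.017 and Slc34a1 between tissues at 10 mg/kg to 0.074. Probes above the median signal gave 2579 calls against 2 mg/kg, 2584 in whole kidneys, 1695 between saline tissues and 171 for the difference of responses, and called Slc34a1 in whole kidneys (-0.79) and Pdzk1 between saline tissues (0.95), as did the offset of 50 for Pdzk1 (0.95), which gave 35 for the difference of responses. Array weights called 3395 against 2 mg/kg and 16 for the difference of responses and turned Slc13a3 at 2 mg/kg to 0.35. The causes were not tested.

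Leaving out 1 array at a time gave 994 to 1188 probes in tubules at 10 mg/kg, 0 to 1 at 2 mg/kg, 951 to 1488 between doses, 567 to 794 between saline tissues, 1814 to 2481 between tissues at 10 mg/kg and 0 to 16 for the difference of responses. Slc13a3 lay between -2.17 and -1.44 in tubules at 10 mg/kg, between -0.36 and 0.42 at 2 mg/kg and between -2.21 and -1.38 against 2 mg/kg. Slc13a1 in whole kidneys lay between -1.71 and -1.26. Slc34a1 lay between -0.070 and 0.15 at 2 mg/kg, between 1.16 and 1.38 between saline tissues and between -0.18 and 0.080 between tissues at 10 mg/kg. Slc34a3 lay between -0.012 and 0.49 at 2 mg/kg and between 1.27 and 1.62 between tissues at 10 mg/kg.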
